A study of Mus musculus with 15 samples.

Results

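Collagen genes were taken as the genes whose name on the array was Col, a number, the letter a and a number, and that were detected in at least 1 group. The array held 40 such genes on 78 of its 41174 probes. A probe was counted as detected when the scanner software marked it well above background on 2 or more of the 3 arrays in any group, which held for 38 genes (70 probes) and not for Col10a1 and Col28a1. Each gene was read from its brightest detected probe. The 38 genes comprised 11 fibrillar collagens, 6 basement membrane collagens (the type IV chains) and 21 other collagens.

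The study profiled uterine RNA from ovariectomized female mice on 15 one-color arrays, 3 in each of 5 groups. The mice, at least 10 weeks old, rested for 10 to 14 days after ovariectomy and then received 100 µl of saline intraperitoneally, alone or with 250 ng of estradiol (E2) or 250 ng of estriol (E3), a weaker estrogen that carries a hydroxyl group on ring D beyond those of E2. Saline uteri were taken at 24 hr, and E2 and E3 uteri at 2 hr and at 24 hr. The saline, E3 and E2 24 hr arrays were of strain C57bl6/J with no genotype label, and the E2 2 hr arrays were of C57bl6/Jx129 and labeled WT for Esr1, the estrogen receptor alpha gene. The E2 2 hr arrays lay on slides of their own and were read on another scanner and day. Strain, slide, scanner and scan day thus cannot be told apart from treatment wherever they were used. The E2 24 hr and the E3 24 hr arrays also lay on slides of their own, so slide cannot be told apart from treatment or time there. No saline uteri of 2 hr were analysed here, so time after injection cannot be told apart from treatment at 2 hr. The methods describe RNA from pooled uteri whereas the labels describe each uterus homogenized by itself, and the p-values therefore measure the spread between these samples, which may be technical. A sample is a whole organ in which fewer cells of a type and less RNA per cell cannot be told apart.

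Expression is given as the log2 ratio of the processed intensity to the 75th percentile of that array, so that 0 marks the percentile and levels of different probes are not set against each other. A gene is said to read its level on arrays 1, 2 and 3 of a group. Every rise, fall or difference is a log2 fold change from 1 limma fit over all 15 arrays, unless it is given as a fold. A gene was called, and is said to have risen or fallen, when p was below 0.001 and the change reached 2-fold. Adjusted p-values are Benjamini-Hochberg values over all tested probes, 34760 at most. The 4 comparisons with saline share the 3 saline arrays.

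Collagens are trimers of alpha chains wound into a triple helix, and they are the main structural proteins of the extracellular matrix. Fibrillar collagens (types I, II, III, V, XI, XXIV and XXVII) pack into the fibrils that bear tension, type IV chains form the sheet-like network of basement membranes under epithelium and around vessels and muscle cells, and the rest form beaded filaments (type VI), short-chain networks (type VIII), fibril-associated molecules or membrane-spanning proteins. In the uterus, stromal fibroblasts and smooth muscle cells make most of the fibrillar collagen, and estrogen is known for remodeling this matrix as the organ swells and grows.

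The promoter windows below are from RefSeq (build GRCm38.p6) and reach from 250 bases before to 50 bases after the annotated start of the gene. They are shown for genes on which the results turn: Col1a2 and Col3a1 (fibrillar collagens that fell at 2 hr of E2), Col8a2 and Col6a3 (which rose at 2 hr of both compounds), the adjoining pair Col4a1 and Col4a2, and Col6a1 (which rose at 24 hr of E2). Capitals mark matches on either strand to an estrogen response element, an AP-1 site, a GC box, a CCAAT box or a TATA box, whose letters are given after the sequences.
Col1a2, chr6:4505368-4505667, plus strand: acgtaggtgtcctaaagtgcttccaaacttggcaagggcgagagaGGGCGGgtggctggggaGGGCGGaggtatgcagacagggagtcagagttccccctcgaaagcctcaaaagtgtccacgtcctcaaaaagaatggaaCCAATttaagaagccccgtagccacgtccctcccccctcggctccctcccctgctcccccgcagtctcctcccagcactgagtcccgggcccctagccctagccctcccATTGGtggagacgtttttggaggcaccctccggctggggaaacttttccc
Col3a1, chr1:45311288-45311587, plus strand: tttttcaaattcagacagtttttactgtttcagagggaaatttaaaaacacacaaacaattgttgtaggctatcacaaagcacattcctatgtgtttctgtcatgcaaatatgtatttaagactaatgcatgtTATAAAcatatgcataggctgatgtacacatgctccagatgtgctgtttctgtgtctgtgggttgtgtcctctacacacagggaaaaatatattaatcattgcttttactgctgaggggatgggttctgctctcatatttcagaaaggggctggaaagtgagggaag
Col8a2, chr4:126286544-126286843, plus strand: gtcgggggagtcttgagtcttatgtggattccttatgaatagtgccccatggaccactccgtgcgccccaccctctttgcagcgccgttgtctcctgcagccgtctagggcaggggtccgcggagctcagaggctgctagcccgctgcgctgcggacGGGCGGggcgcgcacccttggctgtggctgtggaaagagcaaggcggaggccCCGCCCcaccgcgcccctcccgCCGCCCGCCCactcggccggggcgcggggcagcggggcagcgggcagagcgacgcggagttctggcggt
Col6a3, chr1:90843922-90844221, minus strand: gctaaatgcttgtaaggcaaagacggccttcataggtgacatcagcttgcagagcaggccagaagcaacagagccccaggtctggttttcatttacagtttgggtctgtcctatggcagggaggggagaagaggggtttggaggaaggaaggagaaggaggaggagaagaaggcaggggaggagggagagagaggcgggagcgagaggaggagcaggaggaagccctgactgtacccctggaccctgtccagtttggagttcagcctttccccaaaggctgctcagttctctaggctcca
Col4a1, chr8:11312777-11313076, minus strand: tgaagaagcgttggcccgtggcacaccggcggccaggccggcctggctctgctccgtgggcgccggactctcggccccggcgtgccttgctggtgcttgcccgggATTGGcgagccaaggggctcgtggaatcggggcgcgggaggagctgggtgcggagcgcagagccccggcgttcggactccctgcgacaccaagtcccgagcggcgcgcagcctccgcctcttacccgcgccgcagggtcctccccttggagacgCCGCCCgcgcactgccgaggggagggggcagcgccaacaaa
Col4a2, chr8:11312555-11312854, plus strand: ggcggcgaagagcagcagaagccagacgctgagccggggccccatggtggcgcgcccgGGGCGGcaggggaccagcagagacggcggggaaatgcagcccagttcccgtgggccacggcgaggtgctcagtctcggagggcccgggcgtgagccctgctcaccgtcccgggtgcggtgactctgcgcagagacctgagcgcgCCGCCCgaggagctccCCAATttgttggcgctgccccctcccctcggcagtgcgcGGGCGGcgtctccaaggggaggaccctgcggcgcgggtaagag
Col6a1, chr10:76725995-76726294, minus strand: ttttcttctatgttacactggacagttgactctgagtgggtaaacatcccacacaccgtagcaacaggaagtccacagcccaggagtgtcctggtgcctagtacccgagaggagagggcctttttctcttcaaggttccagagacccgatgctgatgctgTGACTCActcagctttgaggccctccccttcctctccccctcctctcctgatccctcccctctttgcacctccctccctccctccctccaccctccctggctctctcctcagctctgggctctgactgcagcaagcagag

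Of the 38 genes, 30 matched a window, 3 of them with more than 1, for 33 windows in all. The estrogen response element, searched as the palindrome GGTCANNNTGACC, was in 0 of the 33 windows and in 0.07% of the 32851 windows of all genes. An AP-1 site, searched as TGANTCA on both strands, lay in 1 of the 33, that of Col6a1, against 7.81% of all windows. GC boxes, searched as GGGCGG on both strands, were in 20 of the 33 windows (6 of 8 fibrillar, 4 of 5 basement membrane and 10 of 20 other), against 35.7% of all. CCAAT boxes, searched by those letters on both strands, were in 12 of the 33 windows, against 37.4% of all. TATA boxes, searched as TATAAA on both strands, were in 4 of the 33, against 13.6% of all. Matches to different motifs did not overlap in these 33 windows. The windows of Col4a1 and Col4a2 run in opposite directions and share 78 bases of chromosome 8. These matches describe letters in a short window and are not evidence of binding. By RefSeq gene order, 6 pairs of the 38 genes had no protein-coding gene between them: Col3a1 and Col5a2, Col4a1 and Col4a2, Col4a3 and Col4a4, Col4a5 and Col4a6, Col6a1 and Col6a2, and Col9a1 and Col19a1.

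Between 77.69 and 81.62% of probes were well above background on an array, 36 of the 38 collagen probes were so on every array, and none of the 38 was saturated. The value of Col9a1 on saline array 3 was set aside as an outlier spot and is missing from its fit. Markers of other abdominal tissues differed between arrays: 7 liver markers summed to 4.73 to 17.66 times the 75th percentile on the saline arrays and to 2.91 or less elsewhere, with 2 of 7 detected on the E2 2 hr arrays, and 6 exocrine pancreas markers summed to 448.3 on E3 2 hr array 2 and to 211.6 on E2 24 hr array 2. Without those last 2 arrays, the collagen genes called numbered 5 at E2 2 hr, 2 at E3 2 hr, 17 at E2 24 hr and 11 at E3 24 hr against saline, and 2 for E3 against E2 at 24 hr. The 8 fat markers summed to 19.33 to 99.24 in saline and 13.63 to 21.08 at E2 24 hr, and the part of these tissues in the collagen values was otherwise not tested. All 10 stromal fibroblast markers and all 8 smooth muscle markers were detected in every group.

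At 2 hr of E2 the fibrillar genes Col1a2 and Col3a1 fell 2.19-fold and 2.25-fold, whereas 2 non-fibrillar genes rose after both compounds, Col8a2 (12.1-fold after E2 and 5.48-fold after E3) and Col6a3 (3.38-fold and 2.13-fold). After E2 for 2 hr, 2 of the 38 collagen genes rose and 2 fell, where 10.6% of all tested probes rose and 10.7% fell. After E3 for 2 hr, 2 of the 38 rose and 0 fell, against 4.68% and 9.11% of all probes, and 8 were higher and 9 lower at an unadjusted p below 0.05. The median over the 11 fibrillar genes was -0.35 at E2 2 hr and -0.17 at E3 2 hr, beside -0.08 and -0.11 over all probes. Across the alternatives the E2 median ranged from -0.90, with the second brightest probe where a gene had one, to -0.26, and the E3 median from -0.37, without E3 2 hr array 1, to -0.0018, with slide as a fixed block. Among those second probes, the ones of Col11a1 and Col24a1 were well above background on 0 of the E2 2 hr arrays. In the E3 2 hr comparison with limma, 0 fibrillar genes were called, with 3 higher and 0 lower at an unadjusted p below 0.05.

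Col1a2 encodes the alpha-2 chain of type I collagen, the main fibrillar collagen of most tissues. Its level was 5.18, 5.39 and 5.14 on the saline arrays, 4.34, 4.09 and 3.89 at E2 2 hr and 5.08, 4.66 and 5.07 at E3 2 hr. All 3 E2 arrays lay below all 3 saline arrays, and the E3 arrays lay just below saline and above E2. The difference from saline was -1.13 ± 0.14 (SE, adjusted p = 2.1e-05) for E2 and -0.30 ± 0.14 (SE, adjusted p = 0.10) for E3. With normexp background correction the E2 difference was -0.98, under 2-fold. Col1a1, the partner chain of type I, read 4.36, 4.44 and 4.26 in saline, 3.84, 3.10 and 3.10 at E2 2 hr and 4.29, 3.11 and 3.95 at E3 2 hr. Its E2 arrays lay below saline without overlap, and its E3 arrays spread from the saline range down to the E2 range. The differences were -1.01 ± 0.26 (SE, adjusted p = 0.0049) for E2 and -0.57 ± 0.26 (SE, adjusted p = 0.091) for E3, neither of them called.

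Col3a1, the single chain of type III collagen found in fibrils of soft organs together with type I, read 4.89, 4.94 and 4.78 in saline, 4.06, 3.48 and 3.57 at E2 2 hr and 4.89, 4.03 and 4.52 at E3 2 hr. The E2 arrays were again all below saline, whereas E3 array 1 sat within the saline range. Col3a1 differed from saline by -1.17 ± 0.19 (SE, adjusted p = 0.00019) at E2 and -0.39 ± 0.19 (SE, adjusted p = 0.11) at E3. Col5a2, a chain of type V collagen that lies inside type I fibrils, read 0.27, 0.53 and 0.54 in saline, -0.14, -0.52 and -0.70 at E2 2 hr and 0.41, -0.13 and 0.22 at E3 2 hr. Its E2 arrays did not overlap saline, and the difference of -0.90 ± 0.16 (SE, adjusted p = 0.00031) was short of the 2-fold rule. Col5a1 and Col5a3, the other type V chains, went the other way: they stood 0.63 and 0.59 above saline at E2 2 hr and 0.70 and 0.53 at E3 2 hr, all under 2-fold. In the same samples the 10 stromal fibroblast markers summed to 95.96 to 110.8 times the 75th percentile in saline, 77.2 to 91.31 at E2 2 hr and 56.18 to 71.18 at E3 2 hr. The part of that sum in these results was not tested. After E3 the brightest probes of Col1a2 and Col3a1 were not called, but their dimmer probes fell, by the values given with the other probes.

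At 24 hr most fibrillar collagens were above saline after both compounds. After E2 for 24 hr, 11 of the 38 collagen genes rose against saline and 6 fell, where 6.94% of all probes rose and 11.1% fell. After E3 for 24 hr, 9 rose and 2 fell, where 1.85% of all probes rose and 1.96% fell. Fibrillar genes supplied 7 of the 11 risers and 6 of the 9. The fibrillar median was 1.24 at E2 and 1.10 at E3, beside -0.06 and -0.01 over all probes, and with second brightest probes it was 0.76 and 0.52. With normexp background correction the E3 split was 7 higher and 0 lower, and the median of all probes was then 0.32 higher than before. The type I and V chains Col1a1, Col1a2, Col5a1 and Col5a2 and the cartilage-type chains Col2a1 and Col11a1 rose after both compounds, Col5a3 was called after E2 only, and Col24a1 fell after E2.

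Col1a1 read 5.80, 5.80 and 5.73 at E2 24 hr and 5.44, 5.74 and 5.51 at E3 24 hr. Col1a2 read 6.49, 6.52 and 6.40 at E2 24 hr and 6.20, 6.50 and 6.30 at E3 24 hr. For both genes every treated array lay above every saline array, and the E2 and E3 arrays overlapped. Col1a1 rose by 1.42 ± 0.26 (SE, adjusted p = 0.00048) after E2 and by 1.21 ± 0.26 (SE, adjusted p = 0.0041) after E3. The E3 call of Col1a1 was near the threshold: it was lost without any single saline array or any single E3 24 hr array, at 1.12 to 1.27, and without scaling between arrays, at 1.14. Quantile normalization also took the calls of Col1a1 (1.11 at E2, 0.99 at E3), and normexp background correction took its E3 call. Col1a2 rose by 1.24 ± 0.14 (SE, adjusted p = 1.4e-05) after E2 and 1.10 ± 0.14 (SE, adjusted p = 0.00025) after E3, the latter 0.87 with quantile normalization. Col3a1 read 5.82, 5.85 and 5.74 at E2 24 hr and 5.62, 5.86 and 5.66 at E3 24 hr, above saline without overlap. Its differences of 0.93 ± 0.19 (SE, adjusted p = 0.0011) and 0.84 ± 0.19 (SE, adjusted p = 0.0057) were both under 2-fold.

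The type V chains were all higher than saline at this time. Col5a2 read 1.93, 1.89 and 1.99 at E2 24 hr and 1.53, 1.76 and 1.72 at E3 24 hr. It rose by 1.49 ± 0.16 (SE, adjusted p = 7.3e-06) and 1.23 ± 0.16 (SE, adjusted p = 0.00024), with no overlap with saline and with every E3 array below every E2 array. Col5a1 read 2.40, 2.28 and 2.35 in saline, 4.03, 4.03 and 4.09 after E2 and 3.35, 3.65 and 3.54 after E3. Its groups were fully separated in the order saline, E3, E2, with rises of 1.17 ± 0.11 (SE, adjusted p = 5.1e-05) after E3 and 1.71 ± 0.11 (SE, adjusted p = 2.9e-07) after E2. Its second probe gave 0.52, not called, and 1.05. Col5a3 rose by 1.06 ± 0.09 (SE, adjusted p = 2.3e-06) after E2, or 0.96 with quantile normalization, and stood 0.82 ± 0.09 (SE, adjusted p = 0.00015) above saline after E3, under 2-fold.

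Col2a1, best known as the collagen of cartilage, read -0.98, -0.84 and -0.73 in saline, -0.92, -1.30 and -1.39 at E2 2 hr and -0.67, -2.11 and -1.13 at E3 2 hr. It then read 0.98, 0.93 and 1.34 at E2 24 hr and 0.94, 1.00 and 0.79 at E3 24 hr. All 6 arrays of 24 hr lay more than 1 log2 unit above all saline arrays, and the widest spread was at E3 2 hr, where array 2 was lowest. The rises of 1.93 ± 0.28 (SE, adjusted p = 8.3e-05) after E2 and 1.76 ± 0.28 (SE, adjusted p = 0.00080) after E3 were the largest of the fibrillar genes on their brightest probes. They depended on the probe: another probe that shares 40 of its 60 bases (chr15:97979257-97979316 against chr15:97979237-97979296, build mm7, minus strand) gave 0.50 and 0.38 at 24 hr, and it rose by 2.04 at E2 2 hr, where the brighter probe gave -0.35.

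Col11a1, whose chain joins cartilage and minor fibrils, read -3.61, -3.61 and -3.98 in saline, -2.23, -2.35 and -2.30 at E2 24 hr and -2.56, -2.14 and -2.47 at E3 24 hr. The treated arrays of both compounds lay above saline and overlapped each other. Col11a1 rose by 1.44 ± 0.18 (SE, adjusted p = 3.1e-05) and 1.34 ± 0.18 (SE, adjusted p = 0.00035). At 2 hr it had read -3.80, -4.09 and -4.31 after E2 and -3.50, -3.67 and -4.16 after E3, both ranges overlapping saline. Col24a1, a minor fibrillar collagen, read -3.67, -3.31 and -3.75 in saline, -4.73, -4.62 and -4.60 at E2 24 hr and -3.03, -3.29 and -3.13 at E3 24 hr. The 24 hr arrays of the 2 compounds lay on opposite sides of saline with no overlap. At 2 hr it had read -3.92, -3.99 and -4.28 after E2, all below saline, and -3.29, -4.04 and -3.92 after E3, overlapping saline. Col24a1 fell, with a log2 change of -1.07 ± 0.18 (SE, adjusted p = 0.00028) after E2 and stood at 0.43 ± 0.18 (SE, adjusted p = 0.089) after E3, and the E2 call was lost without saline array 2 (-0.94), with quantile normalization (-0.86) and with normexp (-0.78). Col11a2 and Col27a1, the remaining fibrillar genes, were not called in any comparison with saline and lay between -0.29 and 0.42 and between -0.15 and 0.42, in that order.

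**Figure D1:**
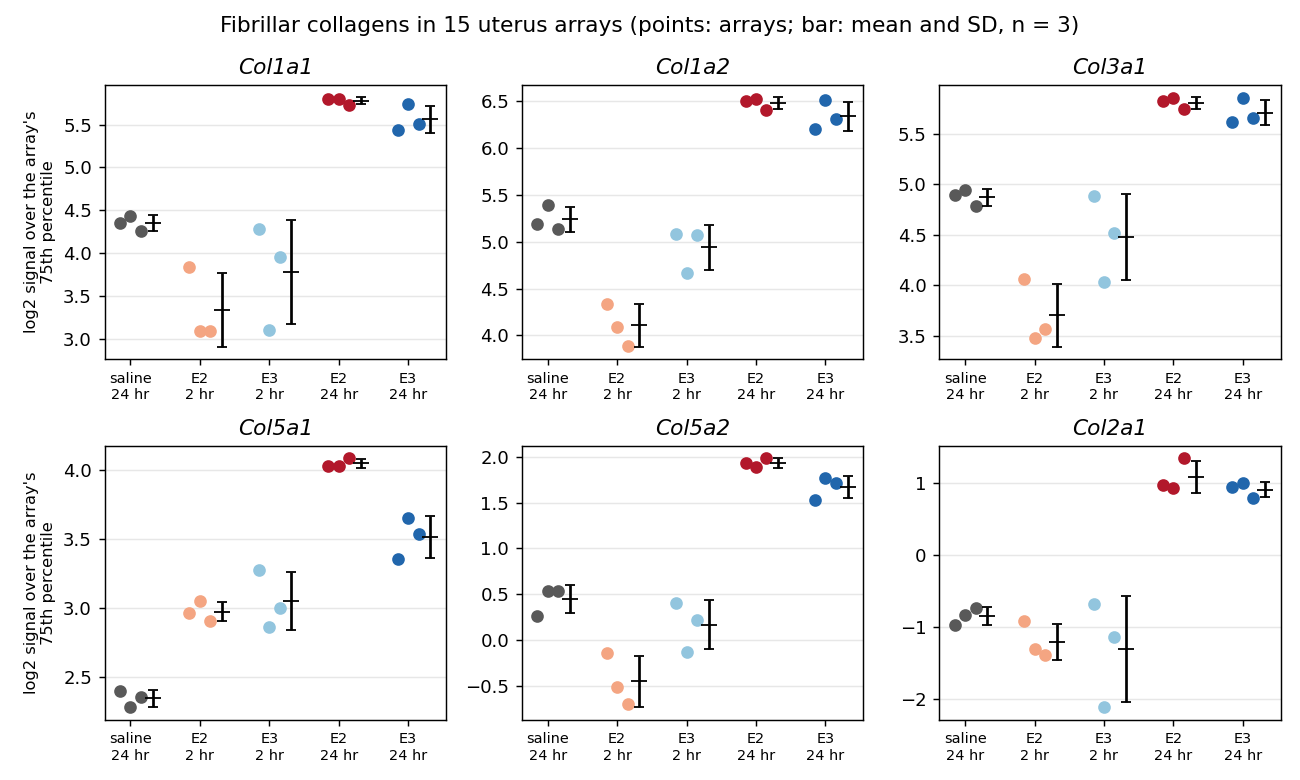
Level of 6 fibrillar collagen genes on each of the 15 arrays, as log2 signal over the array's 75th percentile, with points for arrays and bars for mean ± SD (n = 3) in each group. Col1a1, Col1a2, Col3a1, Col5a1, Col5a2 and Col2a1 all sit above saline on every 24 hr array, and the E2 2 hr arrays of Col1a1, Col1a2, Col3a1 and Col5a2 sit below saline.

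Marker sums of the cell types moved in different directions in the same samples. Stromal fibroblast markers summed to 63.14 to 66.24 at E2 24 hr and 92.86 to 98.63 at E3 24 hr, against 95.96 to 110.8 in saline. Smooth muscle markers summed to 367.1 to 396.8 at E2 24 hr and 376.4 to 466 at E3 24 hr, against 272.7 to 311.8 in saline. The 8 epithelial markers summed to 172.8 to 184.7 and 126.9 to 136.1, against 77.46 to 104.8. Endothelial markers summed to 13.24 to 14.71 at E2 24 hr and 16.14 to 17.76 at E3 24 hr, against 17.19 to 18.81 in saline. Skeletal muscle markers summed to 8.695 to 11.58 and 5.762 to 8.68, against 3.802 to 4.289. Leukocyte markers spread widely, from 10.27 to 19.33 and 11.3 to 41.08, against 9.449 to 34.24. At 24 hr the stromal sum was lower after E2 than after E3, and its E3 range overlapped saline. The part of any of these sums in the collagen values was not tested.

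Of the 6 type IV genes, the basement membrane collagens, 0 were called by limma in any comparison with saline. The shares of all probes that rose and fell were 10.6% and 10.7% at E2 2 hr, 4.68% and 9.11% at E3 2 hr, 6.94% and 11.1% at E2 24 hr, and 1.85% and 1.96% at E3 24 hr, so that among 6 genes a count of 0 is close to the background. The class medians were -0.13 at E2 2 hr, -0.01 at E3 2 hr, 0.10 at E2 24 hr and 0.33 at E3 24 hr. The E2 2 hr median was -0.034 without E2 2 hr array 3, the near-zero E3 2 hr median was 0.02 with normexp or without E3 2 hr array 3, the E2 24 hr median was 0.16 without saline array 3, and with the second brightest probes the medians were -0.51 at E2 2 hr, -0.084 at E3 2 hr, -0.023 at E2 24 hr and 0.21 at E3 24 hr. At an unadjusted p below 0.05 the 6 genes split into 0 higher and 1 lower at E2 2 hr, 1 higher and 2 lower at E3 2 hr, 3 higher and 3 lower at E2 24 hr, and 3 higher and 1 lower at E3 24 hr.

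Col4a1 and Col4a2 encode the chains of the common type IV network of vessels and epithelia. Col4a1 read 1.42, 1.53 and 1.59 in saline, 1.66, 1.38 and 1.15 at E2 2 hr, 1.68, 1.64 and 1.50 at E3 2 hr, 2.00, 2.22 and 2.17 at E2 24 hr and 1.93, 2.07 and 1.85 at E3 24 hr. Col4a2 read 1.52, 1.60 and 1.60 in saline, 1.51, 1.52 and 1.18 at E2 2 hr, 1.54, 1.40 and 1.45 at E3 2 hr, 2.16, 2.19 and 2.35 at E2 24 hr and 2.07, 2.18 and 1.90 at E3 24 hr. In both genes the 2 hr arrays overlapped saline and all 6 arrays of 24 hr lay above it. The 24 hr differences were 0.62 ± 0.12 (SE, adjusted p = 0.00081) and 0.44 ± 0.12 (SE, adjusted p = 0.016) for Col4a1 and 0.66 ± 0.11 (SE, adjusted p = 0.00020) and 0.47 ± 0.11 (SE, adjusted p = 0.0055) for Col4a2, all under 2-fold. Col4a3 and Col4a4, neighbors that encode chains of the kidney filter among other sites, were not called: at E2 24 hr Col4a3 stood at -0.54 ± 0.12 (SE, adjusted p = 0.0020) and Col4a4 at 0.79 ± 0.13 (SE, adjusted p = 0.00023), and the second Col4a4 probe gave -0.46 (adjusted p = 0.0077), on the side of Col4a3.

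Col4a5 and Col4a6, head-to-head on the X chromosome, encode chains of epithelial and smooth muscle basement membranes. Col4a5 read -1.29, -1.30 and -1.07 in saline, -1.63, -1.50 and -1.61 at E2 2 hr, -1.25, -1.62 and -1.81 at E3 2 hr, -1.52, -1.78 and -1.60 at E2 24 hr and -1.20, -1.18 and -1.25 at E3 24 hr. Both E2 groups lay below all saline arrays, and the E3 groups overlapped saline at both times. The differences were -0.36 ± 0.13 (SE, adjusted p = 0.026) at E2 2 hr and -0.41 ± 0.13 (SE, adjusted p = 0.013) at E2 24 hr, neither called. Col4a6 read 2.13, 1.85 and 2.04 in saline, 2.10, 1.89 and 1.98 at E2 2 hr, 1.81, 1.73 and 1.29 at E3 2 hr, 1.53, 1.43 and 1.40 at E2 24 hr and 2.10, 2.37 and 2.22 at E3 24 hr. Its E3 arrays were low at 2 hr and its E2 arrays low at 24 hr, in each case with no overlap with saline. Col4a6 was at -0.39 ± 0.13 (SE, adjusted p = 0.026) against saline at E3 2 hr and -0.55 ± 0.13 (SE, adjusted p = 0.0032) at E2 24 hr, both under 2-fold. At E2 24 hr its 2 dimmer probes gave 0.37 and -0.48, and at E3 2 hr -0.0023 and -0.39.

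**Figure D2:**
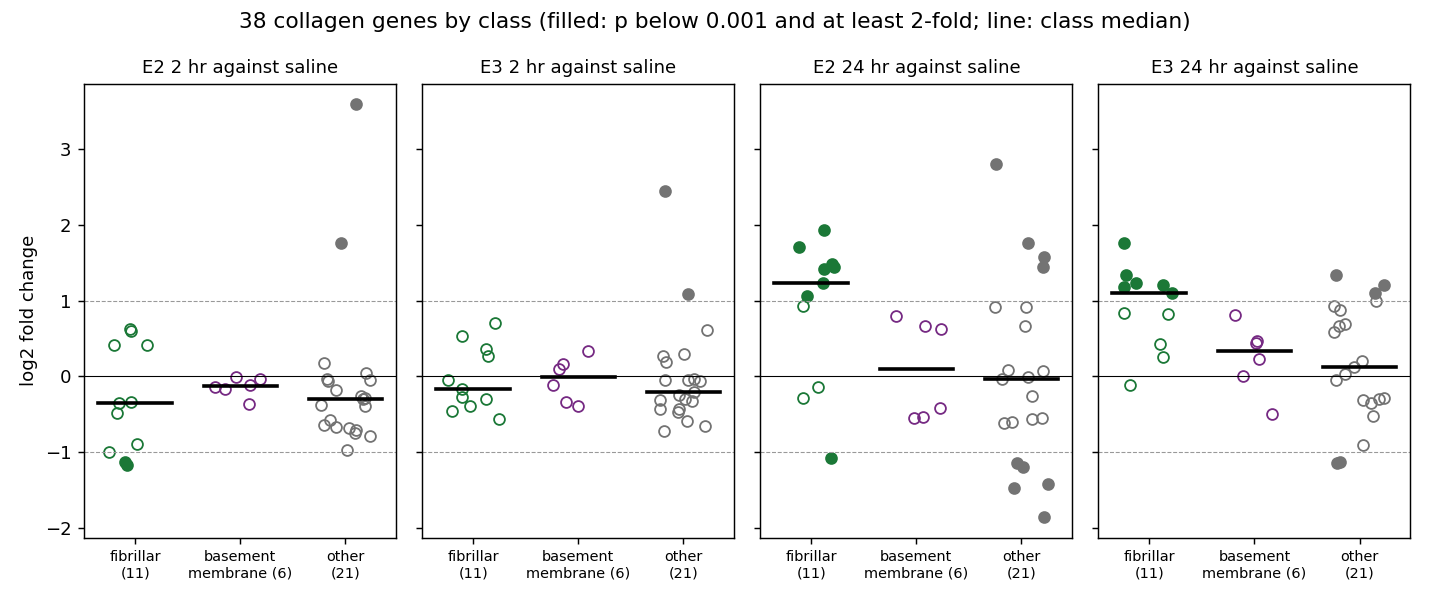
Log2 fold change against saline of each of the 38 collagen genes, in 4 comparisons and split into fibrillar, basement membrane and other collagens, with filled points for called genes and a line at the class median. Fibrillar medians lie at -0.35 and -0.17 at 2 hr and at 1.24 and 1.10 at 24 hr, and no basement membrane gene is filled.

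The 21 other collagens held genes that rose and genes that fell. Their medians were -0.30 at E2 2 hr, -0.20 at E3 2 hr, -0.04 at E2 24 hr and 0.12 at E3 24 hr, and they moved with the processing. The E2 2 hr median was -0.51 with second brightest probes, that of E3 2 hr ranged from -0.31 without array 2 of its group to -0.062 with slide as a fixed block, that of E2 24 hr from -0.29 without array 3 of its group to 0.07 without saline array 1, and that of E3 24 hr from 0.029 with no filter on dim probes to 0.55 with normexp. Beside the shares of all probes given for the type IV genes, 2 rose and 0 fell at each 2 hr comparison (10 and 7 lower at an unadjusted p below 0.05 after E2 and E3), 4 rose and 5 fell at E2 24 hr, and 3 rose and 2 fell at E3 24 hr. The early risers were Col8a2 and Col6a3, the late risers were the type VI chains with Col15a1 and Col12a1, and the late fallers were Col9a2, Col23a1, Col8a1, Col20a1 and Col13a1.

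Col8a2, a short-chain collagen of the matrix around vessel and corneal endothelium, had the largest change of any collagen gene at 2 hr on the brightest probes. It read -0.02, -0.84 and -0.08 in saline, 2.61, 3.69 and 3.54 at E2 2 hr and 2.57, 2.20 and 1.66 at E3 2 hr. By 24 hr it read -0.65, -0.94 and -1.19 after E2 and -0.49, -0.33 and -1.06 after E3. Every 2 hr array stood more than 1 log2 unit above every saline array, and at 24 hr both groups overlapped saline again. The rises at 2 hr were 3.59 ± 0.33 (SE, adjusted p = 1.9e-06) for E2 and 2.45 ± 0.33 (SE, adjusted p = 6.9e-05) for E3, and the 24 hr differences were -0.61 ± 0.33 (SE, adjusted p = 0.13) and -0.32 ± 0.33 (SE, adjusted p = 0.50). Its partner chain Col8a1 read 1.01, 0.45 and 0.61 in saline, -0.46, -0.25 and -0.13 at E2 2 hr, 0.13, 0.16 and -0.40 at E3 2 hr, -0.71, -0.72 and -0.77 at E2 24 hr and 0.58, 0.60 and -0.16 at E3 24 hr. Col8a1 lay below saline in the first 3 of these groups, and its E3 24 hr arrays overlapped saline. It fell, with a log2 change of -1.42 ± 0.22 (SE, adjusted p = 0.00013) at E2 24 hr and was not called at E2 2 hr, -0.97 ± 0.22 (SE, adjusted p = 0.0020).

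The 3 type VI chains, which assemble into beaded filaments around cells, rose after E2 at 24 hr. Col6a3, the longest chain, was also high at 2 hr: it read 3.31, 3.31 and 3.48 in saline, 5.07, 5.16 and 5.13 at E2 2 hr, 4.63, 4.33 and 4.42 at E3 2 hr, 4.96, 4.93 and 4.95 at E2 24 hr and 3.89, 4.25 and 3.96 at E3 24 hr. No treated array overlapped saline, and E2 lay above E3 at both times without overlap. Col6a3 rose by 1.76 ± 0.11 (SE, adjusted p = 6.6e-08) at E2 2 hr, 1.09 ± 0.11 (SE, adjusted p = 4.5e-06) at E3 2 hr and 1.58 ± 0.11 (SE, adjusted p = 4.0e-07) at E2 24 hr, and the E3 24 hr difference of 0.67 ± 0.11 (SE, adjusted p = 0.00075) was under 2-fold. Saline array 3 was on the same slide as the 3 E3 2 hr arrays. Within that slide the E3 minus saline difference of Col8a2 was 2.22 and that of Col6a3 0.98, and with slide as a fixed block 1 gene, Col8a2, kept its E3 2 hr call.

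Col6a1 read 2.73, 2.91 and 2.84 in saline, 2.57, 2.46 and 2.26 at E2 2 hr, 3.22, 3.05 and 3.11 at E3 2 hr, 4.38, 4.73 and 4.65 at E2 24 hr and 3.73, 3.87 and 3.51 at E3 24 hr. The E2 arrays lay below saline at 2 hr and above every other group at 24 hr, whereas the E3 arrays were above saline at both times. Col6a1 rose by 1.76 ± 0.12 (SE, adjusted p = 4.8e-07) at E2 24 hr, and the other differences were -0.40 ± 0.12 (SE, adjusted p = 0.013) at E2 2 hr, 0.30 ± 0.12 (SE, adjusted p = 0.059) at E3 2 hr and 0.88 ± 0.12 (SE, adjusted p = 0.00037) at E3 24 hr. Its neighbor Col6a2 read 0.51, 0.66 and 0.58 in saline, 0.81, 0.87 and 0.60 at E2 2 hr, 1.32, 1.07 and 1.18 at E3 2 hr, 3.18, 3.47 and 3.50 at E2 24 hr and 1.77, 2.11 and 1.89 at E3 24 hr. E2 24 hr stood far above every other group, with E3 24 hr next. Col6a2 rose by 2.80 ± 0.12 (SE, adjusted p = 3.9e-08) at E2 24 hr, the largest rise at that time on the brightest probes, and by 1.34 ± 0.12 (SE, adjusted p = 4.7e-05) at E3 24 hr.

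**Figure D3:**
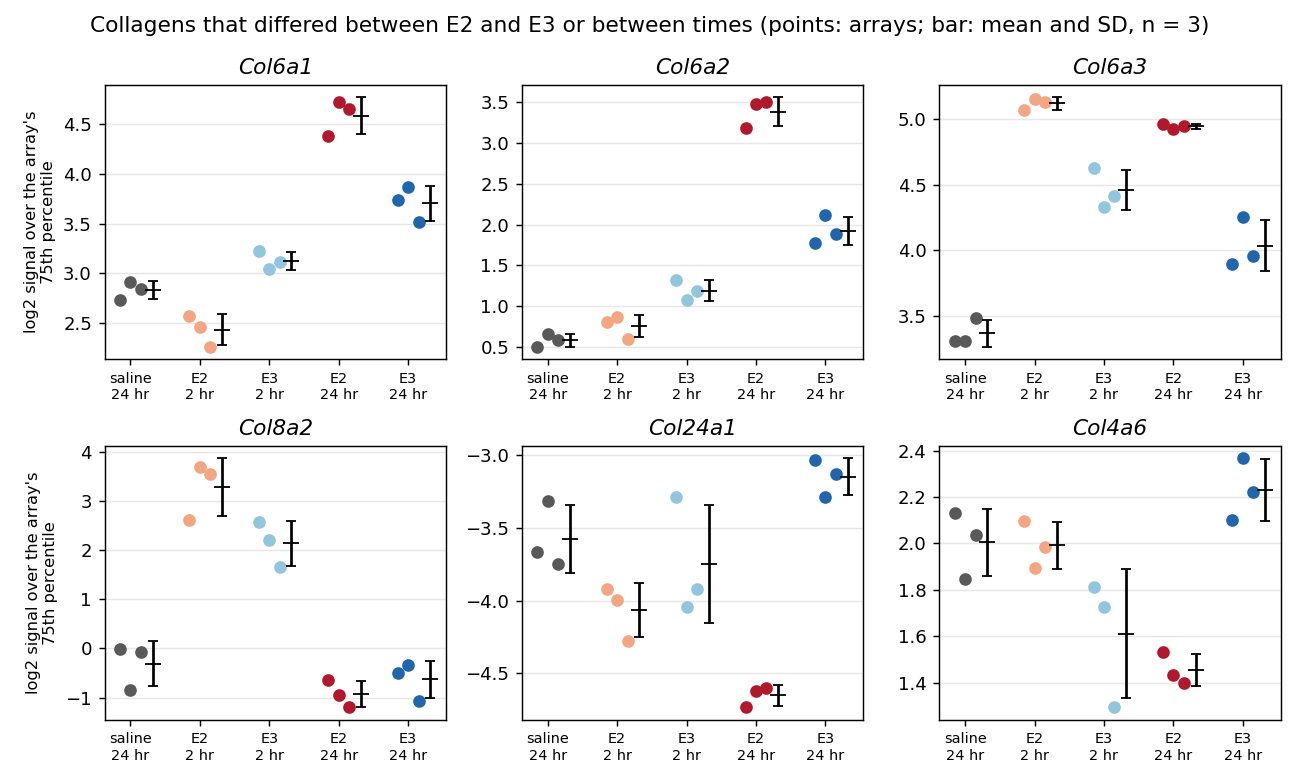
Level of Col6a1, Col6a2, Col6a3, Col8a2, Col24a1 and Col4a6 on each of the 15 arrays, as log2 signal over the array's 75th percentile, with points for arrays and bars for mean ± SD (n = 3). Col8a2 is high on the 6 arrays of 2 hr only, Col6a1 and Col6a2 are highest at E2 24 hr, and the E2 and E3 arrays of Col24a1 and Col4a6 separate at 24 hr.

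Among the multiplexins and fibril-associated collagens, Col15a1, a chain of the zone between basement membrane and stroma, read -0.48, -0.42 and -0.58 in saline, -0.61, -0.75 and -0.89 at E2 2 hr, -0.68, -0.48 and -0.48 at E3 2 hr, 0.90, 1.04 and 0.90 at E2 24 hr and 0.48, 0.76 and 0.59 at E3 24 hr. It was lower than saline on every E2 2 hr array and higher than saline on all arrays of 24 hr. Col15a1 rose by 1.44 ± 0.10 (SE, adjusted p = 5.3e-07) after E2 and 1.11 ± 0.10 (SE, adjusted p = 5.3e-05) after E3, and its second probe gave 0.91 and 0.42, neither of them called. Col18a1, the basement membrane zone collagen from which endostatin is cut, read 4.42, 4.14 and 4.14 in saline, 3.22, 3.73 and 3.63 at E2 2 hr, 3.86, 3.94 and 3.61 at E3 2 hr, 4.16, 4.26 and 4.25 at E2 24 hr and 4.42, 4.38 and 4.28 at E3 24 hr. It was below saline on every array of 2 hr, with differences of -0.71 ± 0.13 (SE, adjusted p = 0.00061) at E2 and -0.43 ± 0.13 (SE, adjusted p = 0.018) at E3, and both groups of 24 hr overlapped saline.

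Col12a1 and Col14a1 encode collagens that sit on the surface of type I fibrils. Col12a1 read -5.31, -4.88 and -5.63 in saline, -5.77, -5.97 and -6.10 at E2 2 hr, -5.64, -5.60 and -5.88 at E3 2 hr, -4.37, -4.30 and -4.39 at E2 24 hr and -4.11, -3.81 and -4.29 at E3 24 hr. The arrays of 24 hr were all above saline. It rose by 1.20 ± 0.18 (SE, adjusted p = 0.00050) at E3 24 hr, a call lost with normexp (1.47, adjusted p = 0.026), and stood 0.92 ± 0.18 (SE, adjusted p = 0.00069) above saline at E2 24 hr. Col14a1 read 1.76, 1.88 and 1.73 in saline, 1.81, 0.98 and 0.86 at E2 2 hr, 1.88, 1.49 and 1.85 at E3 2 hr, 2.18, 1.79 and 1.66 at E2 24 hr and 2.74, 2.76 and 2.66 at E3 24 hr. Only the E3 24 hr arrays stood clear of saline, by 0.93 ± 0.22 (SE, adjusted p = 0.0063), under 2-fold. Col17a1, a transmembrane collagen of epithelial attachment plaques, read -0.65, -1.64 and -1.13 in saline, -1.05, -1.73 and -1.16 at E2 2 hr, -1.89, -0.36 and -0.34 at E3 2 hr, -0.09, -0.18 and -0.40 at E2 24 hr and -0.77, 1.31 and -0.98 at E3 24 hr. Its arrays disagreed within groups, E3 24 hr array 2 most of all, and the SE of each difference from saline was 0.56.

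Col9a2, a chain of cartilage type IX, read -1.75, -1.98 and -2.11 in saline, -3.21, -2.44 and -2.43 at E2 2 hr, -2.36, -2.21 and -2.67 at E3 2 hr, -3.92, -3.71 and -3.78 at E2 24 hr and -2.79, -3.15 and -3.34 at E3 24 hr. Every treated array lay below every saline array, and E2 24 hr was lowest. Col9a2 fell, with log2 changes of -1.86 ± 0.21 (SE, adjusted p = 1.4e-05) and -1.15 ± 0.21 (SE, adjusted p = 0.0018), and the E3 call was lost without E3 24 hr array 3 (-1.03), without saline array 1 (-1.05) and with normexp (-0.70). Col23a1, a membrane-spanning collagen, read -1.49, -1.48 and -1.39 in saline, -2.04, -1.68 and -1.78 at E2 2 hr, -1.68, -1.66 and -1.94 at E3 2 hr, -3.15, -2.83 and -2.82 at E2 24 hr and -2.46, -2.46 and -2.83 at E3 24 hr. It too was below saline on every treated array. Col23a1 fell, with a log2 change of -1.47 ± 0.14 (SE, adjusted p = 3.2e-06) after E2 and -1.13 ± 0.14 (SE, adjusted p = 0.00020) after E3, the latter -0.77 with normexp.

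Col20a1, a fibril-associated collagen, read -2.06, -2.29 and -2.07 in saline, -2.11, -2.28 and -1.90 at E2 2 hr, -2.51, -2.18 and -2.46 at E3 2 hr, -3.46, -3.30 and -3.24 at E2 24 hr and -2.69, -2.70 and -2.59 at E3 24 hr. The 2 hr arrays overlapped saline, and the E2 24 hr arrays were lowest. It fell, with a log2 change of -1.20 ± 0.12 (SE, adjusted p = 4.9e-06) at E2 24 hr, and the E3 difference was -0.52 ± 0.12 (SE, adjusted p = 0.0056). Col13a1, another membrane-spanning collagen, fell, with a log2 change of -1.14 ± 0.17 (SE, adjusted p = 0.00011) at E2 24 hr and stood at -0.91 ± 0.17 (SE, adjusted p = 0.0020) at E3 24 hr. Of the rest, Col7a1, the anchoring fibril collagen, was at -0.79 ± 0.17 (SE, adjusted p = 0.0013) against saline at E2 2 hr, and Col16a1 stood 0.66 ± 0.10 (SE, adjusted p = 0.00014) and 0.69 ± 0.10 (SE, adjusted p = 0.00053) above saline at 24 hr of E2 and E3, all under 2-fold. Col9a1, at the edge of detection, was well above background on 0 saline arrays and was not called. Col9a3, Col19a1, Col22a1 and Col25a1 were not called against saline either, with differences between -0.64 and 0.21.

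The 2 compounds were compared directly, at the same dose, for 38 genes at each of 2 times. At 2 hr, 0 of the 38 genes were called in either direction with limma (9 higher and 5 lower after E3 at an unadjusted p below 0.05, and 1 gene called without E2 2 hr array 1), where 1.54% of all probes were higher and 5.83% lower. At 24 hr, Col24a1 and Col8a1 were higher and Col6a2 lower after E3 than after E2, where 2.77% of all probes were higher and 2.07% lower. With normexp the 24 hr split was 2 higher and 2 lower, and the median of all probes was 0.38 higher.

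At 2 hr the E3 minus E2 differences of the type I and III chains were above 0 on the brightest probes: Col1a2 differed by 0.83 ± 0.14 (SE, adjusted p = 0.00060), with a 95% interval of 0.52 to 1.14, Col3a1 by 0.78 ± 0.19 (SE, adjusted p = 0.0063), interval 0.36 to 1.19, and Col1a1 by 0.44 ± 0.26 (SE, adjusted p = 0.19), interval -0.13 to 1.01. Col8a2 was at -1.14 ± 0.33 (SE, adjusted p = 0.016), interval -1.87 to -0.41, and Col6a3 at -0.66 ± 0.11 (SE, adjusted p = 0.00039), interval -0.89 to -0.43. None of these met both parts of the call rule. The sign depended on the probe: the second Col1a2 probe gave -0.91 (adjusted p = 0.0020), and the 2 dimmer Col3a1 probes gave 0.52 and -0.18. For Col1a1 the 2 dimmer probes gave 1.43, which met the call rule, and 0.69. In this comparison the strain difference of the E2 arrays cannot be told apart from the compound. At 24 hr the strain was the same, but the E2 and E3 arrays shared no slide, so slide cannot be told apart from the compound. Col6a2 was lower after E3, at -1.46 ± 0.12 (SE, adjusted p = 9.5e-06), interval -1.72 to -1.20, with Col6a1 at -0.88 ± 0.12 (SE, adjusted p = 0.00021) and Col6a3 at -0.91 ± 0.11 (SE, adjusted p = 7.1e-05) on the same side and, on these probes, under 2-fold. The second Col6a2 probe gave -0.49 (adjusted p = 0.013), which was not called, whereas the 2 dimmer Col6a3 probes gave -1.15 and -2.46, both called lower (adjusted p = 0.00045 and 0.00029). The probe that gave -2.46 was well above background on 1 of 3 E3 24 hr arrays.

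Col24a1 was higher after E3 by 1.50 ± 0.18 (SE, adjusted p = 9.4e-05), interval 1.10 to 1.90, and no array of one compound overlapped the other. Its second probe, well above background on 1 of 3 E2 24 hr arrays, gave 0.96, which was not called. Col8a1 was higher by 1.08 ± 0.22 (SE, adjusted p = 0.0024), interval 0.60 to 1.55. Its call was lost without any 1 of the E2 24 hr arrays (1.06 to 1.09) without E3 24 hr array 1 or 2 (0.95 and 0.95) and without the 2 arrays with the highest pancreas markers (1.08). Col4a6 stood 0.77 ± 0.13 (SE, adjusted p = 0.00082) higher, interval 0.49 to 1.06, and Col14a1 0.84 ± 0.22 (SE, adjusted p = 0.0093) higher, interval 0.37 to 1.31, both under 2-fold, and the 2 dimmer Col4a6 probes gave 0.045 and 0.73. For the brightest probes of the main fibrillar chains the intervals at 24 hr included 0: -0.78 to 0.35 for Col1a1, -0.44 to 0.17 for Col1a2, -0.51 to 0.32 for Col3a1, -0.78 to 0.43 for Col2a1 and -0.50 to 0.30 for Col11a1. The 2 dimmer Col1a1 probes were lower after E3, at -0.85 (interval -1.43 to -0.27) and -1.03 (interval -1.71 to -0.35), both intervals below 0 and neither value called. Col5a1 was lower after E3, at -0.53 ± 0.11 (SE, adjusted p = 0.0023), interval -0.77 to -0.30, under 2-fold.

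**Figure D4:**
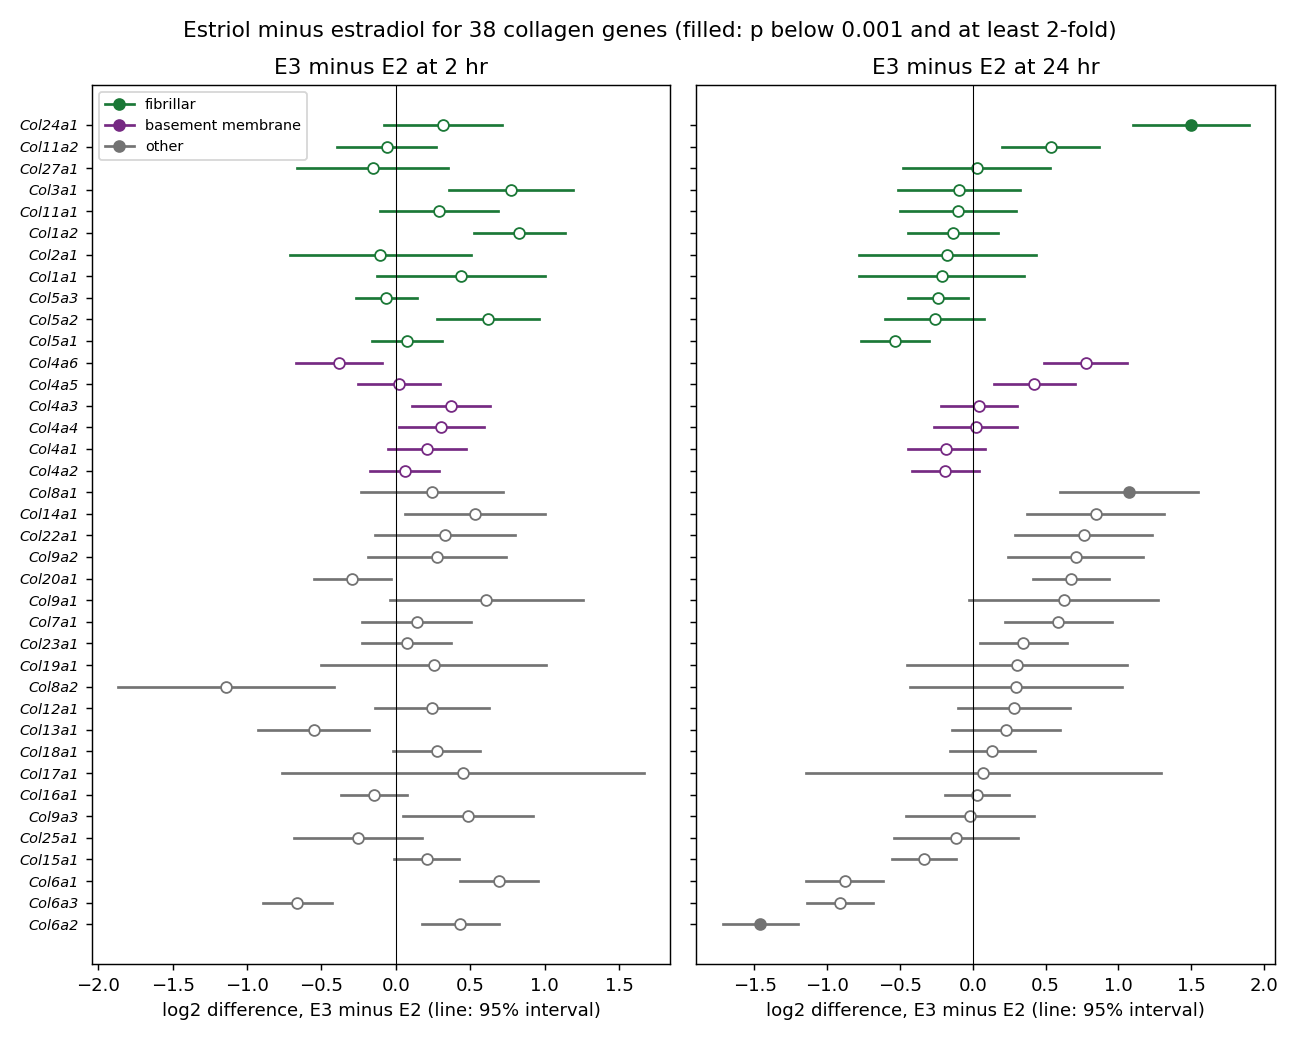
Difference E3 minus E2 in log2 units for the 38 collagen genes at 2 hr and at 24 hr, with points for the limma estimate and lines for its 95% interval. Col6a2 lies at -1.46 and Col24a1 at 1.50 at 24 hr, and the intervals of Col1a1, Col1a2 and Col3a1 include 0 there.

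The contrast of 24 hr with 2 hr within a compound uses no saline array. After E2, 11 of the 38 genes were higher at 24 hr than at 2 hr and 5 lower, where 13.9% of all probes were higher and 17.2% lower. After E3, 8 were higher and 1 lower, where 9.65% and 6.47% of all probes were. Among the fibrillar genes, 7 of 11 rose between the times after E2 (median 1.78) and 6 of 11 after E3 (median 1.23), and 0 fell, with 3 and 0 lower at an unadjusted p below 0.05 in limma. Col1a1 differed by 2.43 ± 0.26 (SE, adjusted p = 3.6e-06) after E2 and 1.78 ± 0.26 (SE, adjusted p = 0.00010) after E3, Col5a2 by 2.39 ± 0.16 (SE, adjusted p = 5.9e-08) and 1.51 ± 0.16 (SE, adjusted p = 6.6e-06), and Col3a1 by 2.10 ± 0.19 (SE, adjusted p = 8.6e-07) and 1.23 ± 0.19 (SE, adjusted p = 0.00016). Col8a2 fell from 2 to 24 hr, with differences of -4.21 ± 0.33 (SE, adjusted p = 2.7e-07) after E2 and -2.77 ± 0.33 (SE, adjusted p = 2.2e-05) after E3, the largest change in either contrast on the brightest probes. The other genes lower at 24 hr after E2 were Col20a1, Col9a2, Col13a1 and Col23a1, and the last 3 dropped under the rule without 1 array: Col9a2 without E2 2 hr array 2 (-0.99) or 3 (-0.98) or E2 24 hr array 1 (-1.05), Col13a1 without E2 2 hr array 2 (-0.92) and Col23a1 without E2 24 hr array 1 (-0.99).

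Whether the E3 minus E2 difference changed between 2 and 24 hr was tested as an interaction. Of the 38 genes, 2 had a higher difference at 24 hr, Col4a6 and Col24a1, and 2 a lower one, Col6a1 and Col6a2, where 11.1% of all probes were higher and 4.39% lower. The split of 2 and 2 became 1 and 3 with quantile normalization, 1 and 2 without scaling and 0 and 2 with normexp, where Col6a1 and Col6a2 were called in all 3, Col4a6 in the first 2 and Col24a1 in none. Without E3 2 hr array 2 the number called was 7, and without E3 2 hr array 3 it was 2. With the second probes the interaction was -0.054 for Col6a2 (adjusted p = 0.83) and 0.54 for Col4a6 (adjusted p = 0.030), neither of them called. On their brightest probes, fibrillar genes other than Col24a1 were not called.

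Counts for the lists of partner genes stand beside the shares of all probes that rose and fell, which were 10.6% and 10.7% at E2 2 hr, 4.68% and 9.11% at E3 2 hr, 6.94% and 11.1% at E2 24 hr, and 1.85% and 1.96% at E3 24 hr. The genes that build and modify collagen were described from lists of 29 processing genes, 17 fibril partners, 16 basement membrane partners and 10 receptors. Of the processing genes, 7 rose and 3 fell at E2 2 hr, 6 and 1 at E3 2 hr, 12 and 1 at E2 24 hr, and 4 and 0 at E3 24 hr, with medians of -0.02, 0.19, 0.80 and 0.42. P4ha2, a prolyl hydroxylase that stabilizes the triple helix, rose by 3.51 ± 0.21 (SE, adjusted p = 5.7e-08) at E2 2 hr and 2.34 ± 0.21 (SE, adjusted p = 2.3e-06) at E3 2 hr. P4ha3, a related hydroxylase, was called higher in all 4 comparisons, with fitted differences of 2.67 and 2.98 at 2 hr and 2.06 and 1.45 at 24 hr of E2 and E3, from a saline level that was well above background on 1 of 3 arrays. Lox, which cross-links fibrils, fell, with a log2 change of -1.25 ± 0.18 (SE, adjusted p = 8.5e-05) at E2 2 hr and -1.01 ± 0.18 (SE, adjusted p = 0.00064) at E3 2 hr, and Fkbp10, a chaperone of procollagen, fell, with a log2 change of -1.26 ± 0.12 (SE, adjusted p = 1.9e-06) at E2 2 hr. Pcolce, an enhancer of procollagen cleavage, rose by 1.52 ± 0.14 (SE, adjusted p = 2.8e-06) at E2 24 hr, and Tll1, a procollagen C-proteinase, fell, with a log2 change of -1.42 ± 0.22 (SE, adjusted p = 0.00014) at E2 24 hr. Adamts2, the procollagen N-proteinase, rose in all 4 comparisons, by 1.24 and 1.03 at 2 hr and 1.32 and 1.26 ± 0.10 (SE, adjusted p = 2.8e-05) at 24 hr of E2 and E3.

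Against the same shares, of the 17 fibril partners 0 rose and 2 fell at E2 2 hr, 1 and 0 at E3 2 hr, 1 and 2 at E2 24 hr, and 2 and 0 at E3 24 hr, with medians of -0.54, -0.16, 0.05 and 0.40. Sparc, a collagen-binding matrix protein, rose by 1.63 ± 0.12 (SE, adjusted p = 7.4e-07) at E2 24 hr and 1.33 ± 0.12 (SE, adjusted p = 5.1e-05) at E3 24 hr. Bgn, a small proteoglycan on fibrils, rose by 1.17 ± 0.19 (SE, adjusted p = 0.00099) at E3 24 hr, and Eln, elastin, rose by 1.12 ± 0.19 (SE, adjusted p = 0.00031) at E3 2 hr. Prelp, a small leucine-rich proteoglycan, and Thbs2, thrombospondin 2, fell, with log2 changes of -1.54 ± 0.16 (SE, adjusted p = 7.0e-06) and -1.41 ± 0.26 (SE, adjusted p = 0.00058) at E2 24 hr, and Tnc, tenascin C, fell, with a log2 change of -1.06 ± 0.15 (SE, adjusted p = 7.2e-05) at E2 2 hr. Kera, a corneal-type proteoglycan, was not well above background on any E2 2 hr array and was at least 4.6-fold lower there than in saline (adjusted p = 0.00022), a bound that sets the saline mean against the lowest signal well above background on the E2 2 hr arrays.

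Against those shares, of the 16 basement membrane partners 1 rose and 2 fell at E2 2 hr, 1 and 0 at E3 2 hr, 1 and 0 at E2 24 hr, and 0 and 0 at E3 24 hr (4 higher and 2 lower at an unadjusted p below 0.05). Lamb1, the laminin beta-1 chain, rose by 2.33 ± 0.12 (SE, adjusted p = 3.1e-08) and 1.25 ± 0.12 (SE, adjusted p = 6.0e-06) at 2 hr of E2 and E3, and Lama4, the laminin alpha-4 chain, and Frem2, a basement membrane protein, fell, with log2 changes of -1.16 ± 0.14 (SE, adjusted p = 2.1e-05) and -1.24 ± 0.20 (SE, adjusted p = 0.00020) at E2 2 hr. Of the 10 receptors, with the same shares beside them, 0 rose and 1 fell at each 2 hr comparison, 1 rose and 2 fell at E2 24 hr, and 1 rose at E3 24 hr. Itga1, the alpha-1 integrin that binds type IV collagen, fell, with log2 changes of -1.77 ± 0.18 (SE, adjusted p = 3.2e-06) and -1.56 ± 0.18 (SE, adjusted p = 1.5e-05) at 2 hr of E2 and E3. Itga2, the alpha-2 integrin of epithelium and platelets that binds type I collagen, rose by 1.57 ± 0.24 (SE, adjusted p = 0.00011) and 1.03 ± 0.24 (SE, adjusted p = 0.0061) at 24 hr of E2 and E3, while Itga11 and Itga10, also collagen-binding integrin chains, fell, with log2 changes of -2.05 ± 0.14 (SE, adjusted p = 4.1e-07) and -1.16 ± 0.12 (SE, adjusted p = 5.8e-06) at E2 24 hr. The medians were -0.24, -0.31, -0.22 and 0.11 for the basement membrane partners and -0.06, -0.20, -0.28 and 0.12 for the receptors, in the order E2 2 hr, E3 2 hr, E2 24 hr and E3 24 hr.

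The readings rested on the probe in part. Of the 38 genes, 26 had at least 2 tested probes, and the second brightest differed from the brightest by more than 1 log2 unit in 5 genes at E2 2 hr, 3 at E3 2 hr, 6 at E2 24 hr and 3 at E3 24 hr, and pointed the other way in 7, 5, 6 and 2. For the genes called at E2 2 hr, all 5 other probes were called the same way. For those called at E2 24 hr, 15 of 16 other probes had the same sign and 9 were called, and at E3 24 hr 9 of 10 and 3. These counts include the second probes of Col11a1, Col24a1 and Col25a1, which were not well above background in some of the groups compared. They also include the third Col6a3 probe, well above background on 1 of 3 saline arrays.

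Col1a1 had 3 probes within 13738 bases on chromosome 11. The 2 dimmer ones gave 2.92 and 2.80 at E2 24 hr and 2.07 and 1.77 at E3 24 hr, larger rises than the 1.42 and 1.21 of the brightest. The second also fell, with a log2 change of -1.83 at E2 2 hr. Col1a2 went the other way: a probe 26786 bases from the brightest (chr6:4466659-4466718 against chr6:4493505-4493564, mm7, plus strand) gave -0.067 and -0.23 at 24 hr, and it fell at 2 hr, with -1.28 at E2 and -2.18 at E3. The late rise of Col1a2 was thus seen on 1 of its 2 probes and the early fall at E2 on both. By the array annotation, the second probes of Col1a2, Col6a2 and Col4a4 and the third of Col3a1 were not matched to a RefSeq transcript. Neither were the brightest probes of Col4a6, Col6a3 and Col23a1, among others. Which transcripts these probes read was not tested. The 2 dimmer probes of Col3a1 fell, with log2 changes of -1.72 and -2.58 at E2 2 hr and -1.19 and -2.76 at E3 2 hr. At 24 hr of E2 and E3 the second rose by 1.40 and 1.04, whereas the third gave -0.28 and 0.027. The dimmer probes of Col6a3 rose by 1.79 and 2.60 at E2 2 hr. At E3 24 hr they gave 0.26 and -0.45, not called. The dimmest Col6a3 probe, which gave 2.60 and -0.45, was well above background on 1 of 3 arrays both in saline and at E3 24 hr. The second probe of Col6a2 gave 1.53 and 1.10 at 2 hr, where the brightest gave 0.17 and 0.61, and 1.06 at E2 24 hr and 0.57, not called, at E3 24 hr. Calls against saline were also lost on the second probes of Col5a3 (0.65) and Col13a1 (-0.94) at E2 24 hr. The second Col11a1 probe was well above background on 0 arrays of saline, E2 2 hr or E3 2 hr and is not set against the brightest. The second Col24a1 probe, well above background on 0 arrays of 2 hr and 1 of 3 at E2 24 hr, gave -0.83 there, not called.

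**Figure D5:**
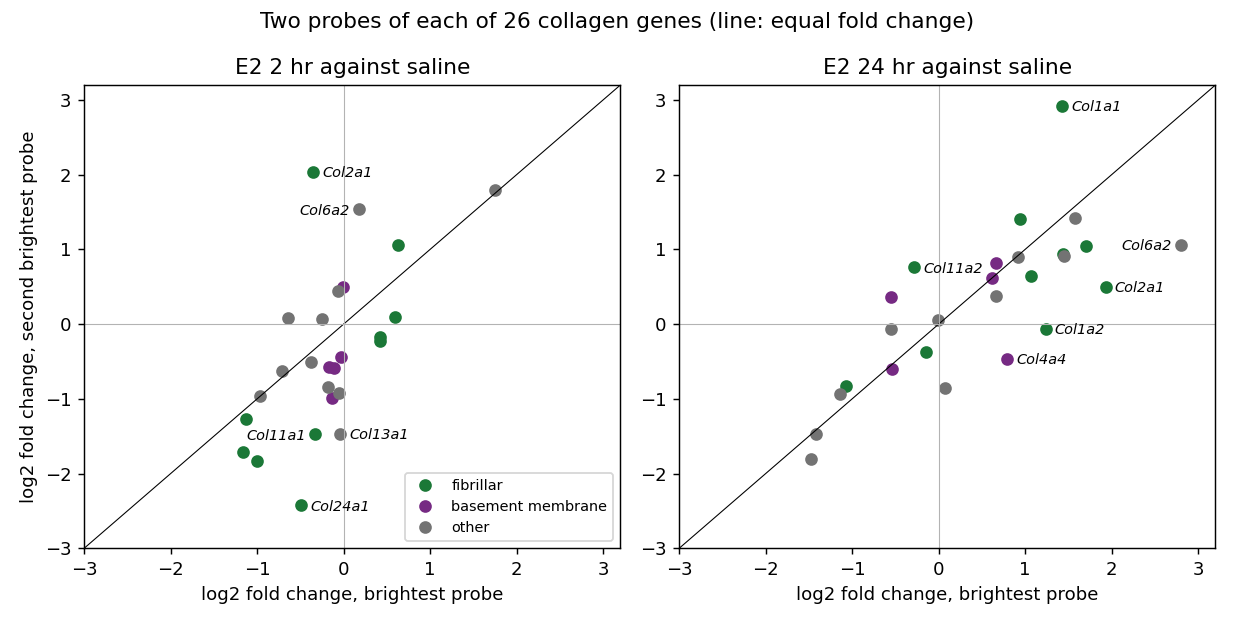
Log2 fold change against saline of the second probe (vertical) against the brightest probe (horizontal) for the 26 collagen genes with at least 2 tested probes, at E2 2 hr and E2 24 hr. Points off the diagonal are genes whose probes gave different values, among them Col2a1 and Col1a2.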

How the data were processed

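The authors labeled 500 ng of uterine RNA with Cy3, hybridized it to Agilent Whole Mouse Genome arrays and extracted signals with Feature Extraction 9.5.3.1, per the file headers. The deposited scanner files and series table hold the same processed intensity per spot (largest relative difference 0), background-subtracted but not scaled between arrays. Probe coordinates follow build mm7, per the file headers.

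Control spots (1639 of 45018) and 1893 outlier-flagged spots were set aside, spots of a probe were averaged, and the log2 of the 75th percentile of the array (2989 to 4412) was subtracted from the log2 intensity. Scaling of this kind takes most probes as unchanged. Of 41174 probes, 34760 (84.42%) were well above background on 2 or more of the 3 arrays in any group and were tested. With limma 3.58.1 in R 4.3.3 (tables read with the data.table package, version 1.17.8), a single fit of 5 group means over 15 arrays (10 residual and 2.06 prior degrees of freedom) gave 9 contrasts: treated against saline, E3 against E2, 24 hr against 2 hr, and their interaction. The code was tested on simulated data. The number of arrays limits the precision.

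Collagen genes, classes and gene lists were chosen with earlier results of these data known. All collagen genes could be named. Levels on every array are given for 12 genes fixed by name and for the 3 largest rises and falls called in each contrast, and of each matrix list the 2 largest rises and falls called against saline are named, except for 1 basement membrane partner that is not reported here. Dpt is both a fibril partner and a stromal marker. Other list members are not listed by name. Alternatives changed the background correction, scaling, filter, probe, call rule, slide or replicate block, or left out arrays; leaving out the 2 arrays with the highest pancreas markers was chosen after seeing the data. The arrays lay on 7 slides.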

Additional observations from a re-analysis of the deposited data

Results flagged for a closer look

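In 4 of the 38 genes the E3 minus E2 difference at 24 hr differed from that at 2 hr by limma's interaction term. They were 2 higher and 2 lower, where 11.1% of all probes were higher and 4.39% lower. The value is the difference at 24 hr minus the difference at 2 hr, on the log2 scale, and the E2 2 hr arrays that enter it are of another strain, which cannot be told apart from the compound. For Col6a2 it was -1.89 ± 0.17 (SE, adjusted p = 1.0e-05), made of 0.44 at 2 hr and -1.46 at 24 hr, with E3 above E2 on every array at 2 hr and below it on every array at 24 hr. The second Col6a2 probe, not matched to a RefSeq transcript, gave -0.054 (adjusted p = 0.83), so that call rested on 1 of its 2 probes. For its neighbor Col6a1 it was -1.57 ± 0.17 (SE, adjusted p = 3.1e-05). For Col4a6 it was 1.16 ± 0.19 (SE, adjusted p = 0.00039), with E3 below E2 at 2 hr and above it at 24 hr. For Col24a1 it was 1.18 ± 0.26 (SE, adjusted p = 0.0027). The call of Col4a6 was lost without E3 2 hr array 3 (1.00) and with its second probe (0.54) but not its dimmest (1.20), and that of Col24a1 without any 1 of 9 arrays (1.04 to 1.21) and without the 2 arrays with the highest pancreas markers (1.05).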

How the results depend on the processing

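Of 66 calls (a collagen gene in a comparison), 30 held in every alternative. In at least 1 alternative, 32 lost the call with the same sign, and 8 turned direction, all 8 with the second brightest probe. Some calls stand in both of these last counts. With that probe the differences were -0.067 and -0.23 for Col1a2 at 24 hr of E2 and E3 against saline, -1.54 and -0.37 for Col2a1 from 2 to 24 hr of E2 and E3, -0.01 for Col5a1, 0.53 for Col13a1 and -0.47 for Col6a2 from 2 to 24 hr of E2, and -0.092 for the Col24a1 interaction, where that probe was well above background on 0 arrays of 2 hr. Genes called with it were 11 at E2 2 hr, 6 at E3 2 hr, 11 at E2 24 hr, 6 at E3 24 hr and 3 for E3 against E2 at 2 hr, counting the probes of Col11a1 (E2 2 hr) and Col24a1 (both 2 hr groups) that were well above background on 0 treated arrays there. The cause was not tested. An adjusted p below 0.05 with no minimum change called 21, 12, 28 and 23 genes against saline (E2 2 hr, E3 2 hr, E2 24 hr, E3 24 hr), 10 and 15 for E3 against E2 at 2 and 24 hr, 28 and 27 for 24 against 2 hr of E2 and E3, and 14 in the interaction. With at least 2-fold it called 1 for E3 against E2 at 2 hr. A p below 0.001 with no minimum change called 10 at E2 2 hr, 5 at E3 2 hr, 20 at E3 24 hr, 3 and 8 for E3 against E2 at 2 and 24 hr, and 19 for 24 against 2 hr of E3. Normexp called 7 at E3 24 hr and 2 in the interaction, and moved the all-probe E3 24 hr calls from 643 higher and 682 lower to 502 and 60, with median shifts of 0.32 at E3 24 hr, 0.38 for E3 against E2 at 24 hr, 0.37 for 24 against 2 hr of E3 and 0.38 in the interaction. Slide as a fixed block called 1 gene at E3 2 hr. Leaving out 1 array gave 4 to 6 genes at E2 2 hr, 2 at E3 2 hr, 17 at E2 24 hr, 9 to 11 at E3 24 hr, 0 to 1 and 2 to 3 for E3 against E2 at 2 and 24 hr, 15 to 16 and 9 for 24 against 2 hr of E2 and E3, and 2 to 7 in the interaction.

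Replicate numbers did not pair the arrays across all groups (9 of 30 same-number pairs correlated above 0.1, range -0.46 to 0.54). The pairs of E3 2 hr with E3 24 hr were all above 0.1, at 0.379, 0.114 and 0.544. With the replicate block the counts were 4, 2, 17, 11, 0, 3, 16, 9 and 4, as without it. Signal over background limited Col9a1 and Col19a1 among the collagen genes.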
